A study of Homo sapiens with 24 samples.

Results

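RNA of 9 genes that supply histones to newly made DNA or copy DNA methylation onto it was followed through 46 h of growth of K562 cells after centrifugal elutriation. The genes were listed by name, with earlier results of these data known. They were SLBP, CHAF1A, CHAF1B, ASF1A, ASF1B, NASP, HELLS, UHRF1 and DNMT1, which are 9 of the 12285 genes in the expression table. K562 is a leukaemia cell line of human origin that carries erythroid traits and grows unattached, and elutriation separates cells by size, so that the collected fraction starts at a similar stage of the cell cycle. The labels give no treatment and no engineered allele. The cells were grown in RPMI medium with bovine calf serum and sampled every 2 h from 0 h to 46 h, with 1 library of total RNA per time point and no replicates. The study was about libraries of a time series in which many transcripts differ from those before and after, which it called STRIPEs. It held their origin to be likely technical and not biological, with the step unknown, which was not tested here. It gave 16 h and 18 h as the clear examples here, with 32 h less marked. A cycle of 24 h was taken, so 0 h to 22 h is called the first day and 24 h to 46 h the second day below.

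When DNA is copied, the nucleosomes ahead of the fork are taken apart and the 2 daughter strands need new histones. SLBP binds the stem-loop at the end of replication-dependent histone mRNAs and is needed for their processing and translation. NASP holds a reserve of soluble H3 and H4, ASF1A and ASF1B are paralogous chaperones that pass H3 and H4 dimers on, and CHAF1A and CHAF1B are the large and the middle subunit of CAF-1, the complex that lays H3 and H4 onto new DNA at the fork. For DNA methylation, UHRF1 recognises CpG sites that carry the mark on the old strand only, DNMT1 methylates the new strand there, and HELLS is a chromatin remodeller that both processes depend on at compact chromatin. Many genes of DNA replication are targets of E2F factors and are transcribed from late G1 into S phase.

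The stretches before the start sites are shown for 4 of the genes whose RNA followed a 24 h order and for ASF1A, whose RNA ran against that of its paralogue ASF1B. The sequences and the starts are those of RefSeq on GRCh38.p14, in which all 9 genes were found by symbol, with 3 starts for UHRF1 and 1 for each of the others. They are shown 5′ to 3′ on the strand of the gene, as the 150 bases that end just before the start. Capitals mark matches to an E2F motif.

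HELLS, chr10:94545638-94545787, plus strand: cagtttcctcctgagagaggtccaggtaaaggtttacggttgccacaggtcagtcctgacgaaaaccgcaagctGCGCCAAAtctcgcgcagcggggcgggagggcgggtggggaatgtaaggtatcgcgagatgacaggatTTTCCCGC
UHRF1, first start, chr19:4909351-4909500, plus strand: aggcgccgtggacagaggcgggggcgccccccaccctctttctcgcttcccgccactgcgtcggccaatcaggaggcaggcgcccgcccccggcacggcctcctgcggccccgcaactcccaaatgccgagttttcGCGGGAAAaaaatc
CHAF1B, chr21:36385242-36385391, plus strand: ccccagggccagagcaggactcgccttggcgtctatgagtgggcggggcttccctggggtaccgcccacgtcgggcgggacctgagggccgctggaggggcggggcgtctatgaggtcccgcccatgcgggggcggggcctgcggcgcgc
ASF1B, chr19:14136590-14136739, minus strand: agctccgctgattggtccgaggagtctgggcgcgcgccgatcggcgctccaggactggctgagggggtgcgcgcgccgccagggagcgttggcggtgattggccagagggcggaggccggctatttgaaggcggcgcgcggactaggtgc
ASF1A, chr6:118894002-118894151, plus strand: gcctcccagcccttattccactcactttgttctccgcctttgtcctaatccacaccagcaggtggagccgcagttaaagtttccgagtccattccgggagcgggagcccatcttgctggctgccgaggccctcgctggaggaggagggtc

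The E2F motif was searched on both strands as TTTGGCGC, TTTCCCGC, TTTGCCGC or TTTCGCGC in the 250 bases before each start. It was found in 2 of the 9 genes, HELLS and UHRF1, against 2.79% of 35116 promoters searched in the same way. For each motif a gene is counted once over all its starts, 3 for UHRF1, while the share is of promoters, so the units differ. HELLS held it at bases -76 and -8 from its start, and UHRF1 at base -14 of its first start and at base -160 of its second start, which is not printed here. The letters CCAAT were present on either strand in 5 genes (CHAF1A, ASF1B, NASP, HELLS and UHRF1), against 32.0% of all promoters. The cell-cycle element TTTGAA, known from G2/M genes, was present in 1 gene, ASF1B, at base -27, against 13.3% of all promoters. In these windows no match to one motif overlapped a match to another, while in CHAF1A the CCAAT matches at bases -41 and -38, on opposite strands, overlapped each other. CHAF1B, whose RNA had one of the clearest 24 h orders, held none of them in its window, and SLBP, ASF1A and DNMT1 held none either. A match describes the letters and is not evidence that a factor bound there.

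Values are FPKM, fragment counts scaled by transcript length and library size, which can be compared between genes. All 9 genes were above 5 FPKM at every time point. NASP was the most abundant, with a median of 340.2 FPKM, followed by SLBP at 113 and DNMT1 at 98.7. The chaperone subunits ASF1A, CHAF1A, ASF1B and CHAF1B lay close together at 36.6, 33.9, 31.9 and 30.9 FPKM. HELLS at 17.4 and UHRF1 at 12.8 were the least abundant. The order of neighbours held at all 24 time points for NASP over SLBP, DNMT1 over ASF1A, CHAF1B over HELLS and HELLS over UHRF1. Within the chaperone group neighbours swapped often, since ASF1A exceeded CHAF1A at 16, CHAF1A exceeded ASF1B at 15 and ASF1B exceeded CHAF1B at 18 of 24 time points, so these medians do not rank them. DNMT1 therefore had far more RNA than its partner UHRF1, and NASP more than any chaperone subunit it works with.

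**Figure D1:**
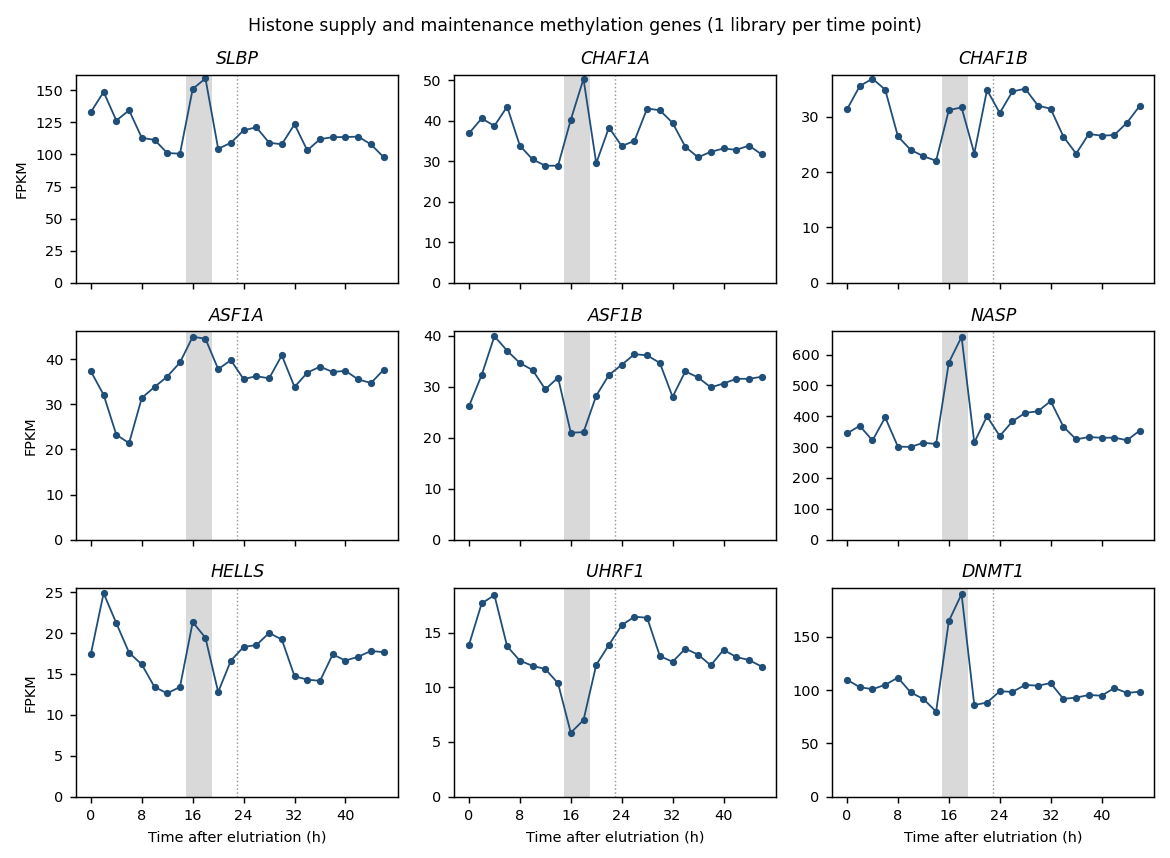
FPKM of the 9 genes (y axis, linear from 0) against hours after elutriation (x axis), with 1 point per library. The shaded band holds 16 h and 18 h and the dotted line separates the days. Outside the band CHAF1B, HELLS and UHRF1 were high from 2 h to 4 h and from 26 h to 28 h, and ASF1A was low at 4 h and 6 h.

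The erythroid identity of the cells was visible, as all 11 erythroid markers looked for were in the table, with GATA1 at a median of 133 FPKM and HBG2 at 2434. Of 6 fibroblast markers only COL1A2 was in the table, at 1.70 to 3.94 FPKM. The leukocyte gene PTPRC ran from 14.3 FPKM at 6 h to 44.6 at 46 h and the T cell gene CD3D from 4.2 FPKM at 12 h to 12.9 at 44 h, so both had their highest value late in the series, and their part in the results was not tested. The table holds only genes that reached 1 FPKM in at least 12 time points. At 16 h and 18 h, 4 of the 11 erythroid markers were above their flanks and the others below, among them GATA1, at 58.0 and 49.2 FPKM against 137 and 109 FPKM at 14 h and 20 h. In bulk RNA, fewer cells at a stage and less RNA per cell cannot be told apart.

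Whether the genes followed a daily order was tested with the JTK statistic, the largest rank agreement of a gene with 24 h cosines at 12 phases, with a permutation p adjusted by Benjamini-Hochberg over all 12285 genes. ASF1B, CHAF1B and UHRF1, a chaperone, a CAF-1 subunit and the reader of half-methylated DNA, passed at an adjusted p of 0.05. These 3 of 9 compare with 13% of all genes. Their phases were 4 h for ASF1B (permutation, adjusted p = 0.00372) and 2 h for CHAF1B (permutation, adjusted p = 0.00604) and UHRF1 (permutation, adjusted p = 0.00777). When 16 h and 18 h were left out, 5 of 9 passed against 14.7% of all genes. CHAF1A, at 4 h (permutation, adjusted p = 0.0105), and HELLS, at 2 h (permutation, adjusted p = 0.0125), joined the other 3, which then had adjusted p-values of 0.00884 (CHAF1B), 0.0142 (UHRF1) and 0.0215 (ASF1B). All 5 phases thus fell within the first 4 h of the cycle. The share of such phases among all called genes is not given, and called genes of other lists below also had early phases. SLBP, NASP, ASF1A and DNMT1 did not pass in either test, and their adjusted p-values without 16 h and 18 h were 0.194 for each of the first 3 and 0.0700 for DNMT1. The p-value treats the time points as exchangeable, so a slow drift lowers it too, and with 1 culture it measures the order of these libraries only.

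CHAF1B had the largest cosine amplitude without 16 h and 18 h and the highest correlation between the days of the 9 genes. From 0 h to 14 h its successive levels were 31.3, 35.5, 36.9, 34.9, 26.4, 24.0, 22.9 and 22.0 FPKM. From 20 h to 46 h they were 23.3, 34.8, 30.7, 34.5, 35.0, 32.0, 31.4, 26.4, 23.3, 26.9, 26.6, 26.7, 28.9 and 32.0 FPKM. Both highs came at 4 h of a day and both lows in the middle, at 14 h and 36 h. The cosine fitted to log2(FPKM + 1) without 16 h and 18 h had an amplitude of 0.28 ± 0.038 (SE, n = 22 libraries, limma adjusted p = 0.00292), which is 1.47-fold from trough to peak. Its correlation between the days over 10 matched hours, leaving out the hours of 16 h and 18 h, was 0.86. For all genes the median of this correlation was 0.081, with 10% of genes above 0.55.

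CHAF1A, the partner of CHAF1B in CAF-1, rose and fell with it at lower regularity. From 0 h to 14 h it was at 36.9, 40.6, 38.7, 43.5, 33.9, 30.5, 28.9 and 28.9 FPKM, and the second day had its high of 43.0 FPKM at 28 h and its low of 31.0 at 36 h. The way to this high was uneven, with 29.5, 38.3, 33.8, 35.0, 43.0, 42.6 and 39.5 FPKM from 20 h to 32 h. With 22 h, 28 h and 30 h left out and 16 h and 18 h kept, its JTK adjusted p was 0.198 (permutation), against 0.128 with all time points. Its fitted amplitude without 16 h and 18 h was 0.20 ± 0.039 on the log2 scale (SE, n = 22 libraries, limma adjusted p = 0.0110), and the days correlated at 0.60. The ratio of CHAF1A to CHAF1B in the same library had a median of 1.25 and stayed between 0.992 (46 h) and 1.33 (30 h) when 16 h and 18 h were left out. At 18 h it was 1.59, the highest value of the series. CHAF1A was the more abundant at 23 of 24 time points, and the RNA levels of the 2 subunits were never more than 1.59-fold apart.

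Without 16 h and 18 h, HELLS had the largest first-day range of the 5 genes with a daily order, at 1.97-fold. From 0 h to 14 h it was at 17.5, 24.9, 21.2, 17.6, 16.2, 13.4, 12.6 and 13.4 FPKM. From this low it returned to 20.0 FPKM at 28 h, and a second low of 14.2 came at 36 h, which is shallower than the first. Its amplitude without 16 h and 18 h was 0.23 ± 0.051 on the log2 scale (SE, n = 22 libraries, limma adjusted p = 0.0164). With all time points its JTK adjusted p was 0.0810 (permutation), and with 16 h alone left out it was 0.0294.

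UHRF1 was at 13.9, 17.7, 18.4, 13.7, 12.4, 12.0, 11.7 and 10.4 FPKM from 0 h to 14 h, a decline without a break after 4 h. It was at 5.84 and 6.99 FPKM at 16 h and 18 h, and returned to 12.0 at 20 h and 16.5 at 26 h. In the second day it went from 16.4 FPKM at 28 h to 11.9 at 46 h. The highs of the days were again 2 h to 4 h into each, and its days correlated at 0.80. The amplitude without 16 h and 18 h was 0.21 ± 0.043 on the log2 scale (SE, n = 22 libraries, limma adjusted p = 0.0130).

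ASF1B and its paralogue ASF1A ran in opposite directions early in the first day. From 0 h to 8 h ASF1B was at 26.2, 32.3, 39.9, 37.1 and 34.7 FPKM. Over the same hours ASF1A was at 37.3, 32.1, 23.3, 21.4 and 31.4 FPKM, so one was highest where the other was near its lowest. The ratio of ASF1B to ASF1A in the same library thus went from 0.701 at 0 h to 1.72 at 4 h and 1.73 at 6 h, and was back at 0.816 by 12 h. In the second day it lay between 0.804 and 1.01, and ASF1A did not fall again, with 35.8 FPKM at 28 h and 40.9 at 30 h. At these matched hours ASF1A was 1.54-fold and 1.91-fold higher in the second day. A rise of at least 0.5 on the log2(FPKM + 1) scale at both of these hours, a limit chosen after the values were seen, was met by 1 of the 9 genes and by 4.05% of the genes that averaged at least 1 FPKM. The mean day difference of ASF1A on that scale was 0.089 with all matched hours and -0.040 without 22 h, 28 h, 30 h and their partners. It was 0.015 without 6 h and its partner. Over 10 matched hours the days of ASF1A correlated at -0.32 and those of ASF1B at 0.19, both below the 0.86 of CHAF1B and the 0.80 of UHRF1. The cosine fit without 16 h and 18 h gave ASF1B an amplitude of 0.11 ± 0.040 on the log2 scale (SE, n = 22 libraries, limma adjusted p = 0.109), which did not pass although the rank test did.

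**Figure D2:**
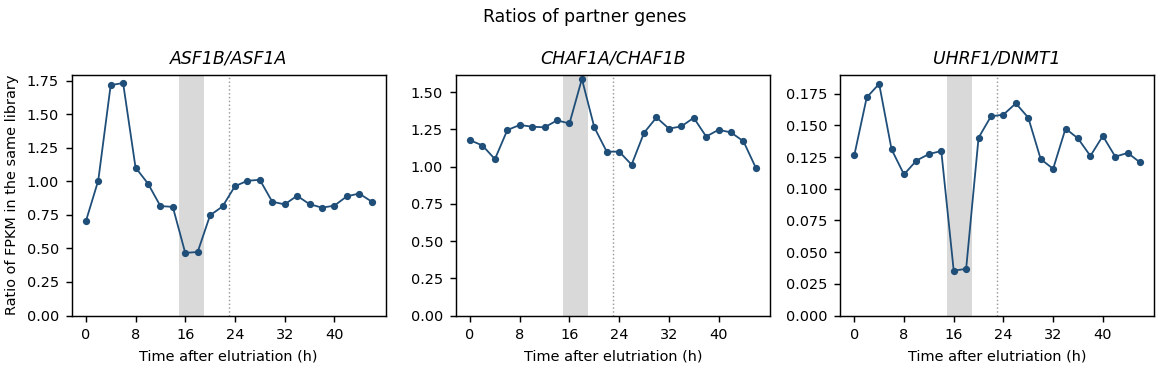
Ratios of FPKM in the same library (y axes, linear from 0) against hours after elutriation (x axis) for ASF1B over ASF1A, CHAF1A over CHAF1B and UHRF1 over DNMT1, with 16 h and 18 h shaded and a dotted line between the days. ASF1B over ASF1A peaked at 1.72 and 1.73 at 4 h and 6 h, CHAF1A over CHAF1B stayed within 0.992 and 1.59, and UHRF1 over DNMT1 dropped to 0.0354 and 0.0368 in the shaded band.

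SLBP, NASP and DNMT1, the 3 most abundant genes, had no daily order that passed the test. Without 16 h and 18 h SLBP had a first-day high of 149 FPKM at 2 h and a low of 101 at 14 h, and lay between 97.9 and 123 FPKM in the second. NASP lay between 300.7 and 400 FPKM in the first day without 16 h and 18 h, and its second-day high, 449 FPKM, came at 32 h, the milder named time point. DNMT1 was between 79.8 FPKM at 14 h and 112 at 8 h in the first day without 16 h and 18 h, and between 91.7 and 107 FPKM in the second, the narrowest second-day span of the 9 at 1.16-fold. UHRF1, which brings DNMT1 to the new strand, did pass, and the difference between the 2 genes in order was not itself tested. The ratio of UHRF1 to DNMT1 had a median of 0.129 and ran from 0.111 at 8 h to 0.183 at 4 h outside 16 h and 18 h.

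The swing of the genes was larger in the first day. Without 16 h and 18 h, the log2(FPKM + 1) range, highest minus lowest, was larger in the first day for 8 of 9 genes. NASP was the exception at 0.41 and 0.48. Of all genes, 61.6% had a larger range in the first day without 16 h and 18 h. With these time points kept the count was 9 of 9, and the median range of all genes was then 0.90 in the first day and 0.49 in the second. ASF1A had a range of 0.86 in the first day and 0.26 in the second, HELLS of 0.92 and 0.47 and UHRF1 of 0.77 and 0.44. Among the 8 genes the days were closest in CHAF1A, at 0.57 and 0.46, and CHAF1B, at 0.72 and 0.57. For all genes the median range was 0.57 in the first day without 16 h and 18 h and 0.49 in the second. The first day then has 10 libraries and the second 12, which favours a larger range in the second.

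**Figure D3:**
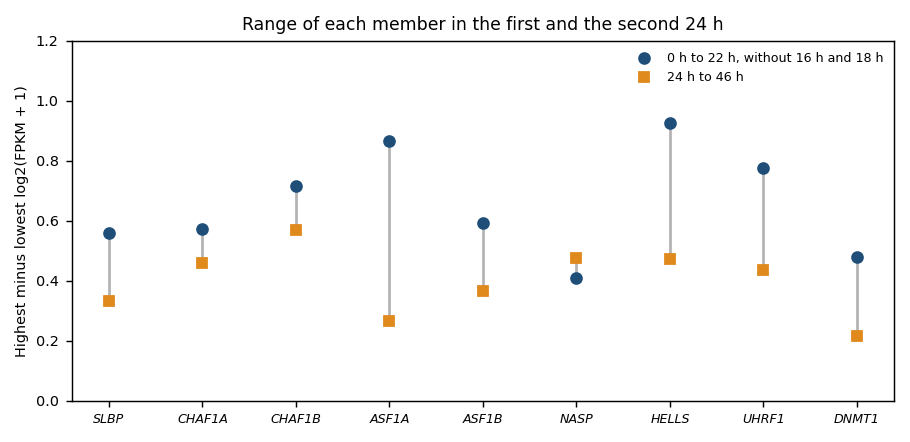
Highest minus lowest log2(FPKM + 1) of each gene (y axis, from 0) in the first day without 16 h and 18 h (circles) and in the second day (squares). The circle is above the square for 8 of 9 genes, with NASP as the exception, and the gap is widest for ASF1A.

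No difference in mean level between the days passed its test. Second minus first day was estimated with limma on log2(FPKM + 1), with the 12 matched hours as a factor, and 0 of 9 genes passed an adjusted p of 0.05. Among all genes 9.57% were called higher and 5.16% lower in the second day. At an unadjusted p of 0.05, 0 of the 9 genes passed, against 30.6% of all genes. The smallest p was that of SLBP, with a difference of -0.14 ± 0.068 (SE, 12 matched hours, limma adjusted p = 0.190) and higher second-day values at 4 of 12 hours. Without 16 h, 18 h and their partners, again 0 of 9 passed, against 12.6% of all genes called higher and 6.80% called lower, and 0 had an unadjusted p under 0.05. The largest difference was then that of ASF1A at 0.16 ± 0.096 (SE, 10 matched hours, limma adjusted p = 0.248). The libraries come from 1 culture, so these SE and p-values measure only the spread between these libraries. The same holds for those of the cosine fits.

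At 16 h and 18 h most of the 9 genes stood far from their neighbours. The deviation is the mean log2(FPKM + 1) of both libraries minus the straight line from 14 h to 20 h. DNMT1 was at 79.8, 165, 190 and 85.9 FPKM from 14 h to 20 h, a deviation of 1.09 or 2.12-fold, more than 93.0% of all genes. NASP went from 310.2 FPKM at 14 h to 574 and 657 and back to 315, a deviation of 0.97. With upper-quartile scaling DNMT1 was at 0.84 and NASP at 0.73, and with quantile normalization at 0.79 and 0.81. CHAF1A (0.61), HELLS (0.60), SLBP (0.59) and CHAF1B (0.45) were also above their flanks. These 4 were smaller with upper-quartile scaling, at 0.37, 0.37, 0.35 and 0.22, and with quantile normalization, at 0.36, 0.45, 0.32 and 0.25. ASF1B and UHRF1 were below, with ASF1B at 21 and 21.1 FPKM between 31.8 and 28.3, a deviation of -0.49, and UHRF1 at -0.72. With upper-quartile scaling ASF1B was at -0.72 and UHRF1 at -0.93, and with quantile normalization at -0.63 and -0.73. ASF1A had a deviation of 0.21, which flipped to -0.03 with upper-quartile scaling and with quantile normalization.

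Of the 9 genes, 7 were above their flanks, against 58.1% of all genes, and 8 were outside the range of the same measure at 16 other pairs of time points, against 71.6% of all genes. ASF1A was the one inside its range. The median deviation of all genes was 0.14, and it was 0.02 with median centring, -0.07 with upper-quartile scaling and 0.06 with quantile normalization. The deviation of all genes also went with the GC content of the transcript, from a median of 0.56 at 30 to 40% GC to -0.60 at 60 to 70% GC. ASF1A (34.9% GC) and HELLS (37.6%) are at the low end, and CHAF1A (57.6%) and ASF1B (58.4%) at the high end. With a smooth GC trend removed, which was an alternative added after seeing the data, DNMT1 was at 1.37, CHAF1A at 0.99, NASP at 0.80, SLBP at 0.62 and CHAF1B at 0.38. HELLS was then at 0.13, ASF1B at -0.07, ASF1A at -0.28 and UHRF1 at -0.48, so the members of the pair UHRF1 and DNMT1, with 54.6% and 55.4% GC, stood on opposite sides either way. These libraries also had the highest summed FPKM, 566247 and 591309 against at most 520382 elsewhere, and the part of this in the deviations was not tested.

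**Figure D4:**
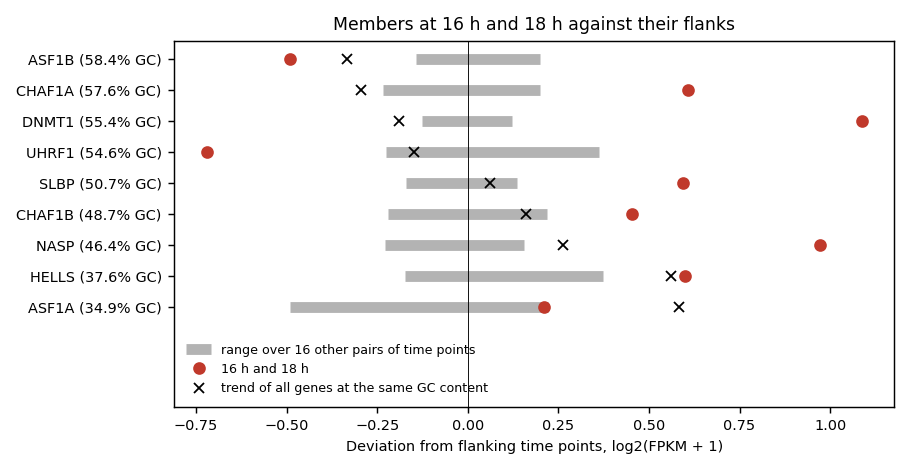
Deviation of each gene at 16 h and 18 h from the line between 14 h and 20 h (x axis, log2(FPKM + 1)), ordered by transcript GC content. Red points are 16 h and 18 h, grey bars the range of the same measure over 16 other pairs of time points and crosses the trend of all genes at the same GC content. DNMT1 at 1.09 and NASP at 0.97 lie far right of their bars, UHRF1 at -0.72 and ASF1B at -0.49 lie left, and ASF1A lies within its bar.

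ASF1A also stood apart in how the genes moved together. Over the 22 libraries without 16 h and 18 h, the 28 pairs among the other 8 genes all had a positive correlation of log2(FPKM + 1), which ran from 0.12 to 0.86 around a median of 0.56. The 8 pairs with ASF1A were all negative and ran from -0.56 to -0.01 around a median of -0.41. With 16 h and 18 h included the medians were 0.48 and -0.12 and both sets held both signs. These are descriptions over libraries that share a culture and a course of time, and no p is attached. The share of positive pairs among all genes is not given, and ASF1A was set apart with its values known.

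The other genes most like the mean profile of the 9 were, over 24 time points, CLSPN (r = 0.89), MCM10 (0.89), PTBP2 (0.88), DONSON (0.87) and ACP1 (0.86). Over 22 time points they were CDC6 (0.94), CLSPN (0.91), DDX42 (0.90), LASP1 (0.87) and DONSON (0.86). CDC6 loads the replicative helicase, MCM10 and DONSON take part in its activation, and CLSPN mediates checkpoint signals at the fork. The gene most like UHRF1 was E2F1 over 24 time points (r = 0.92) and the cyclin gene CCNE2 over 22 (0.95). For CHAF1B it was CDC6 in both (0.90 and 0.91), for CHAF1A MCM10 (0.91) and MCM4 (0.91), and for HELLS CENPU in both (0.87 and 0.92). ASF1A was most like PPFIA3 (0.88) over 24 and VASP (0.90) over 22 time points. For ASF1B they were KCTD7 (0.95) and TCF19 (0.90), for NASP NDUFA5 (0.97) and SUB1 (0.93), for DNMT1 TOPBP1 (0.94) and REV1 (0.80), and for SLBP UBE3A in both (0.92 and 0.87).

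Among 16 genes of G1/S and S phase, 9 passed the JTK test with all time points and 11 without 16 h and 18 h, all with phases from 0 h to 8 h. The shares of all genes passing these tests were 13% and 14.7%. The helicase subunit MCM5 ran from 120 FPKM at 4 h to 66.2 at 38 h, leaving out 16 h and 18 h, with a phase of 4 h (permutation, adjusted p = 0.00148). GINS2 and MCM2 had phases of 4 h and 2 h at the same adjusted p, which is the smallest the permutations could give. Of 15 G2/M genes, 4 passed with all time points and 0 without 16 h and 18 h, when TOP2A had an adjusted p of 0.0623 (permutation), TTK of 0.0948 and CDK1 of 0.105. The median Z-score of the 9 genes was highest outside 16 h and 18 h at 28 h (0.98) and 2 h (0.92), and that of the G1/S and S phase genes at 2 h (1.44). At 16 h and 18 h the median of the 9 genes was at 1.36 and 1.40, between -1.18 at 14 h and -0.89 at 20 h. That of the G1/S and S phase genes, at -1.22 and -0.92, stayed near its -0.93 at 14 h and -0.70 at 20 h.

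**Figure D5:**
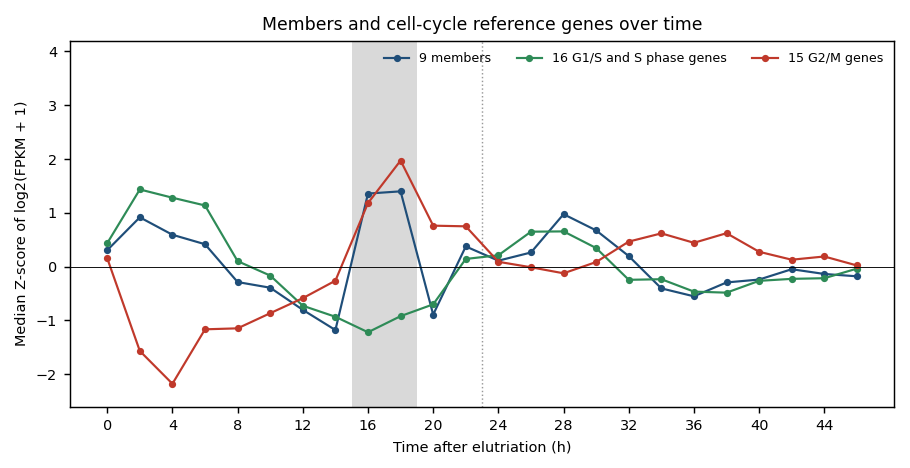
Median Z-score of log2(FPKM + 1) over the series (y axis) for the 9 genes, 16 G1/S and S phase genes and 15 G2/M genes against hours after elutriation (x axis), with 16 h and 18 h shaded and a dotted line between the days. The 9 genes and the G1/S and S phase genes were both above 0 at 2 h to 6 h and 26 h to 30 h. In the shaded band the 9 genes rose to 1.36 and 1.40. The G1/S and S phase genes, at -1.22 and -0.92, stayed near their -0.93 at 14 h and -0.70 at 20 h.

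Other histone chaperones had 3 of 21 called with all time points, a share close to the 13% of all genes, and 8 without 16 h and 18 h, against 14.7%, all with phases from 0 h to 8 h. The 3 were UBN1 and HIRA, subunits of the complex that deposits H3.3 outside replication, and RBBP7, a histone-binding subunit shared by several complexes. HIRA ran from 93.1 FPKM at 6 h to 61.6 at 22 h, with a phase of 8 h (permutation, adjusted p = 0.0229), against 4 h for CHAF1A and 2 h for CHAF1B. In histone mRNA processing, where SLBP acts, 2 of 18 passed with all time points and 2 without 16 h and 18 h, not the same genes throughout. Both shares were below the 13% and 14.7% of all genes. LSM11, a part of the U7 particle that cuts histone pre-mRNA, was highest at 4 h with 7.66 FPKM and had a phase of 2 h (permutation, adjusted p = 0.0148). UPF1, which takes part in histone mRNA decay, passed with all time points (permutation, adjusted p = 0.0148) and not without 16 h and 18 h (permutation, adjusted p = 0.0507). It was at 20.2 and 19.4 FPKM at those time points, between 39.5 at 14 h and 39.1 at 20 h.

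Of 28 genes of DNA methylation and its readers, 7 passed with all time points and 11 without 16 h and 18 h, against 13% and 14.7% of all genes. Of these called genes, 5 and 9 had phases from 0 h to 8 h. The corepressor TRIM28 had a phase of 8 h and ran from 592 FPKM at 6 h to 324 at 44 h (permutation, adjusted p = 0.00372). CDCA7, which recruits HELLS to chromatin, had a phase of 22 h (permutation, adjusted p = 0.00416) and, outside 16 h and 18 h, was highest at 0 h with 72.4 FPKM and lowest at 8 h with 42.2. MBD3, of the NuRD complex, had a phase of 6 h (permutation, adjusted p = 0.0123). Of 37 replication-dependent histone genes, 22 were in the table and 3 passed, a share close to the 13% of all genes. They were HIST1H2AC (phase 0 h), HIST1H2AG and HIST1H4I (both 22 h), and their lows all came at 10 h. The summed level of the 22 was highest at 0 h with 1200 FPKM and lowest at 18 h, one of the named time points, with 462 FPKM. At 16 h and 18 h 10 of the 22 were above their flanks. Histone genes are close copies of each other, so reads may have been split among them, and their mRNAs lack the usual poly(A) tail.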

How the data were processed

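RNA of K562 cells was sequenced at 24 time points, 1 library each, and samples were placed by the time in their labels. The authors aligned reads with STAR and made FPKM values with Cufflinks and Cuffnorm, as deposited. The submitters' notes name GRCh37 and the versions are not given in the sources used here. The deposited second table holds a score, Z-scored and quantile-normalized by the authors, and served as an alternative. Read counts were not recovered, so depth is unknown and no count model was used. At most 29.3% of low FPKM values lay within 0.1 of a whole read, by the best of many units tried. Transcript lengths were those of GENCODE 29 and a share falls within 0.1 by chance, so this check cannot decide whether counts are recoverable. JTK order was tested by permutation with 100000 orderings (smallest p 1e-05) and days with limma 3.58.1 on log2(FPKM + 1) of those genes that averaged 1 FPKM or more, Benjamini-Hochberg adjusted over all genes tested. A fold change on the log2(FPKM + 1) scale understates low genes. Symbols and GC content came from GENCODE 29. Scripts ran in Python 3.11.15 and R 4.3.3 and were tested on simulated data. Named were the 9 genes, the 3 genes with the largest JTK statistic of each list, the 5 genes most like the mean profile and the 1 most like each gene. Further genes were named for a marker check or from seen values. The genes and lists were chosen with earlier results of these data known. Alternatives were other periods, scalings, pseudocounts, filters and left-out time points. A further marker list is reported for PTPRC and CD3D only, and the rest of it is not reported here.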

Additional observations from a re-analysis of the deposited data

How the results depend on the processing

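The number of the 9 genes with a 24 h order, 3 with all time points, was 3 to 4 when each library was left out in turn. It was 5 without 16 h and 18 h, without 6 h, 16 h, 18 h and 32 h, in the authors' normalized score table and, added after seeing the data, without 14 h to 20 h, and the same 5 genes were called in each. It was 6 with PCHIP interpolation, where DNMT1 joined. It was 1 at a period of 20 h (ASF1B) and 1 at a period of 28 h (UHRF1), and list genes called went from 28 to 7 and 9. Leaving out 6 h alone kept 3 of the 9 genes but lowered list genes called to 19. Calls over all genes then went from 1602 to 937, the fewest with any 1 library left out. Single libraries changed a JTK call for CHAF1A (permutation, adjusted p = 0.0468 without 18 h), HELLS (0.0294 without 16 h and 0.0387 without 20 h) and ASF1A (0.0182 without 30 h, 0.0337 without 42 h and 0.0450 without 44 h). Other alternatives under which a gene passed were quantile normalization for CHAF1A (0.0439), upper-quartile scaling (0.0430) and the removed GC trend (0.0320) for HELLS, and median centring (0.0484) and leaving out 22 h, 28 h and 30 h (0.0215) for ASF1A.

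None of the day differences was called under any alternative run, but some changed sign. For CHAF1A the log2 difference was 0.032 without 16 h and 18 h, 0.016 without 6 h, 16 h, 18 h and 32 h and 0.056 with PCHIP, and -0.070 to 0.0042 with 1 hour left out. For NASP these were 0.13, 0.083 and 0.12, with 0.0063 under upper-quartile scaling, 0.075 under quantile normalization and -0.096 to 0.046 with 1 hour left out. For DNMT1 they were 0.028, 0.045 and 0.066. CHAF1B was at -0.0014 with median centring and ran from -0.015 to 0.034 with 1 hour left out, HELLS from -0.024 to 0.053, and ASF1A was at -0.040 without 22 h, 28 h and 30 h.

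The deviation of ASF1A at 16 h and 18 h changed sign to -0.028 with upper-quartile scaling, -0.033 with quantile normalization and -0.28 with the GC trend removed. The cause was not tested. The labels give no replicate numbers, and the only pairing was that of matched hours between the days. Depth is unknown, so counting error cannot be given for any single value.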
